A study of Danio rerio with 11 samples.

Results

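The transcripts described here are those of 10 zebrafish (Danio rerio) genes of the germ plasm and of primordial germ cells: nanos3, dazl, dnd1, ca15b, ddx4, buc, tdrd6, tdrd7a, piwil1 and piwil2. They were taken by symbol, ignoring case, from the 32520 gene identifiers of the count tables, and each symbol matched 1 identifier. All 10 were tested in every comparison below.

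Germ plasm is cytoplasm that the oocyte loads with particular RNAs, proteins and mitochondria, and cells that inherit it during cleavage become the primordial germ cells. In zebrafish it is gathered in the oocyte at the Balbiani body and later collects at the first cleavage furrows, where its RNAs sit in granules. The genes of germ plasm and early germ cells encode, among others, a helicase, RNA-binding proteins, Tudor proteins and Piwi proteins.

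The libraries came from embryos of the transgenic lines tg(actb2:3xflag-sfGFP-eIF4E1b) and tg(actb2:3xflag-sfGFP-eIF4E1c). eIF4E1b and eIF4E1c belong to the eIF4E family of proteins that bind the cap of mRNAs. In RNA immunoprecipitation (RIP) the GFP-tagged protein was pulled from an embryo lysate with anti-GFP beads and the RNA that came with it was sequenced, while the input was total RNA of the lysate. The comparisons ask which RNAs come down with each of these proteins. No library was an immunoprecipitate from embryos without a tagged protein. In a comparison of RIP with input, RNA held by the protein and RNA held by the beads therefore cannot be told apart. All libraries were of embryos at the 8-cell stage: RIP was sequenced in 3 replicates for eIF4E1b and 2 for eIF4E1c, and the input in 3 for each line. The promoter of actb2 (actin, beta 2), which is active in most tissues, drives both transgenes, so the tagged proteins were not limited to germ plasm. Neither the labels nor the methods name a mutation carried by these embryos. Each lysate pooled embryos, and nothing states whether replicates came from separate clutches, so p-values measure the spread between these libraries. RIP and input libraries were made with different kits, and immunoprecipitation and kit cannot be told apart in a comparison of RIP with input. A kit effect common to both lines cancels in the comparison of RIP to input ratios. In lysates of whole embryos, fewer cells holding a transcript and less RNA per cell cannot be told apart.

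Total counts per library ran from 6943631 in eIF4E1c RIP replicate 1 to 13993294. That library also had counts in the fewest genes, 15114, against 17520 to 19591 in the others. Every result below that involves eIF4E1c RIP rests on 2 libraries, and where leaving out replicate 1 ends a call the value without it is given. Transcripts of eif4e1b were 3.67-fold higher in eIF4E1b input than in eIF4E1c input (adjusted p = 7.66e-17, DESeq2), and those of eif4e1c were 1.62-fold lower (adjusted p = 0.000169), as the labels of the lines say. Of 8 zygotic or somatic genes, 6 never exceeded 10 counts in a library, while neurog1 reached 29 and gsc 65. Their summed normalized counts were 36.2 to 60.9 in eIF4E1b RIP, 4.28 to 88.2 in eIF4E1c RIP, 38.7 to 49.0 in eIF4E1b input and 31.1 to 38.8 in eIF4E1c input. The 5 maternal markers pou5f3, nanog, sox19b, ccnb1 and zar1 summed to 9045 to 10203, 14167 to 16945, 11777 to 12252 and 10819 to 12593 in the same groups.

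Levels are given as normalized counts, that is counts divided by the library's DESeq2 size factor on a common scale for all 11 libraries. They are not corrected for gene length, so they are compared between libraries and not between genes. A transcript was called higher or lower where the DESeq2 Wald test, fitted over all genes, gave a Benjamini-Hochberg adjusted p under 0.005. Fold changes are given with their standard errors (SE).

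**Figure D1:**
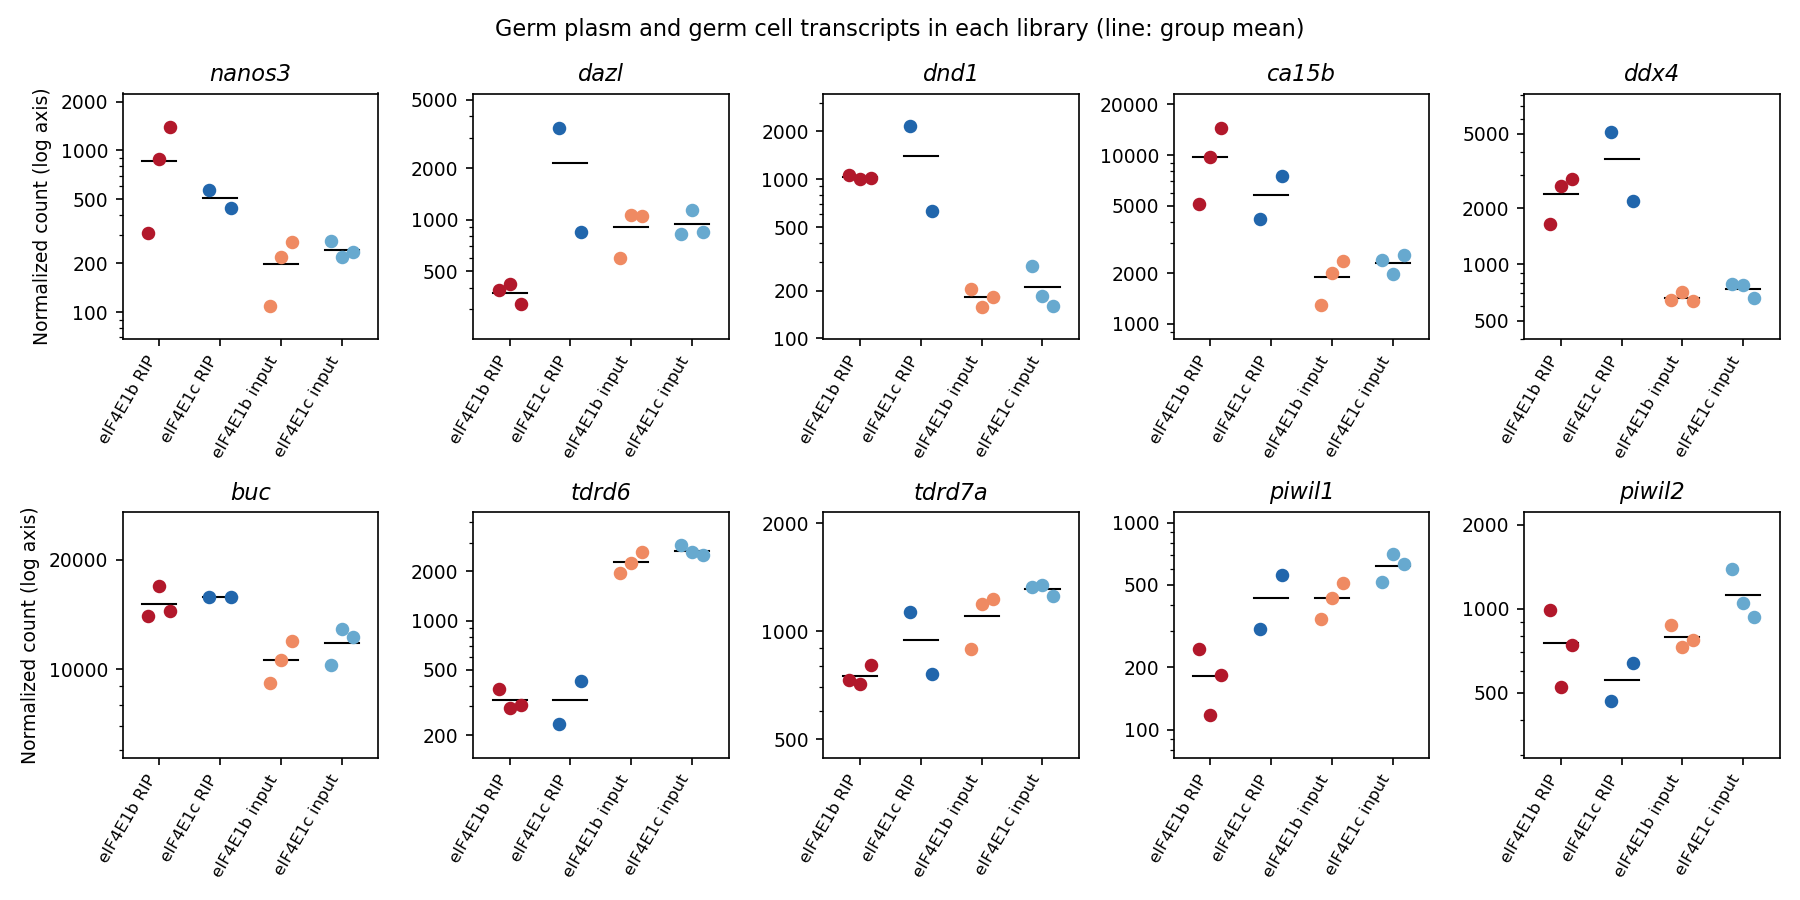
Normalized counts (log axis) of the 10 transcripts in each of the 11 libraries, with 1 point per library and a black line at each group mean, for eIF4E1b RIP (n = 3), eIF4E1c RIP (n = 2), eIF4E1b input (n = 3) and eIF4E1c input (n = 3). Both RIP groups lie above both inputs for nanos3, dnd1, ca15b, ddx4 and buc and below them for tdrd6, and dazl at 320.5 to 418 in eIF4E1b RIP lies below every other library.

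Against their inputs, dnd1, ca15b and ddx4 were higher and tdrd6 was lower with both proteins. The transcripts nanos3, dazl and piwil1 passed the test with eIF4E1b and not with eIF4E1c, where nanos3 just missed it (adjusted p = 0.00501, DESeq2). Between the lines, the ratio of RIP to input was not shown to differ for nanos3 (1.06, adjusted p = 0.295, DESeq2) or piwil1 (-0.73, adjusted p = 0.325). In eIF4E1b RIP, nanos3, dnd1, ca15b and ddx4 rose over input, while dazl, tdrd6 and piwil1 fell. These 4 higher and 3 lower calls of 10 stand beside 23.0% of 17123 genes called higher and 23.2% called lower in that comparison. In eIF4E1c RIP, dnd1, ca15b and ddx4 rose over input and tdrd6 fell, 3 and 1 of 10 beside 17.2% and 16.8% of 15131 genes. The median log2 fold change of the 10 was 0.19 with eIF4E1b and 0.74 with eIF4E1c, against 0.05 and 0.00387 over all genes tested. The edgeR quasi-likelihood test also gave 4 and 3 calls with eIF4E1b, beside 23.0% and 22.6% of genes, but 1 and 1 with eIF4E1c, those of ddx4 and tdrd6, beside 9.09% and 6.89%. At a threshold of 0.05 the lower calls with eIF4E1c were 2, tdrd6 and piwil2, beside 22.1% of genes. Without eIF4E1c RIP replicate 2 the eIF4E1c counts were 5 higher and 3 lower, beside 21.6% of genes in each direction, and without replicate 1 they were 3 and 2, beside 20.4% and 23.9%. The RIP libraries lay above all inputs of their line for 5 transcripts and below them for 4 with eIF4E1b, beside 32.9% and 32.4% of genes, and for 5 and 3 with eIF4E1c, beside 29.5% and 34.0%.

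**Figure D2:**
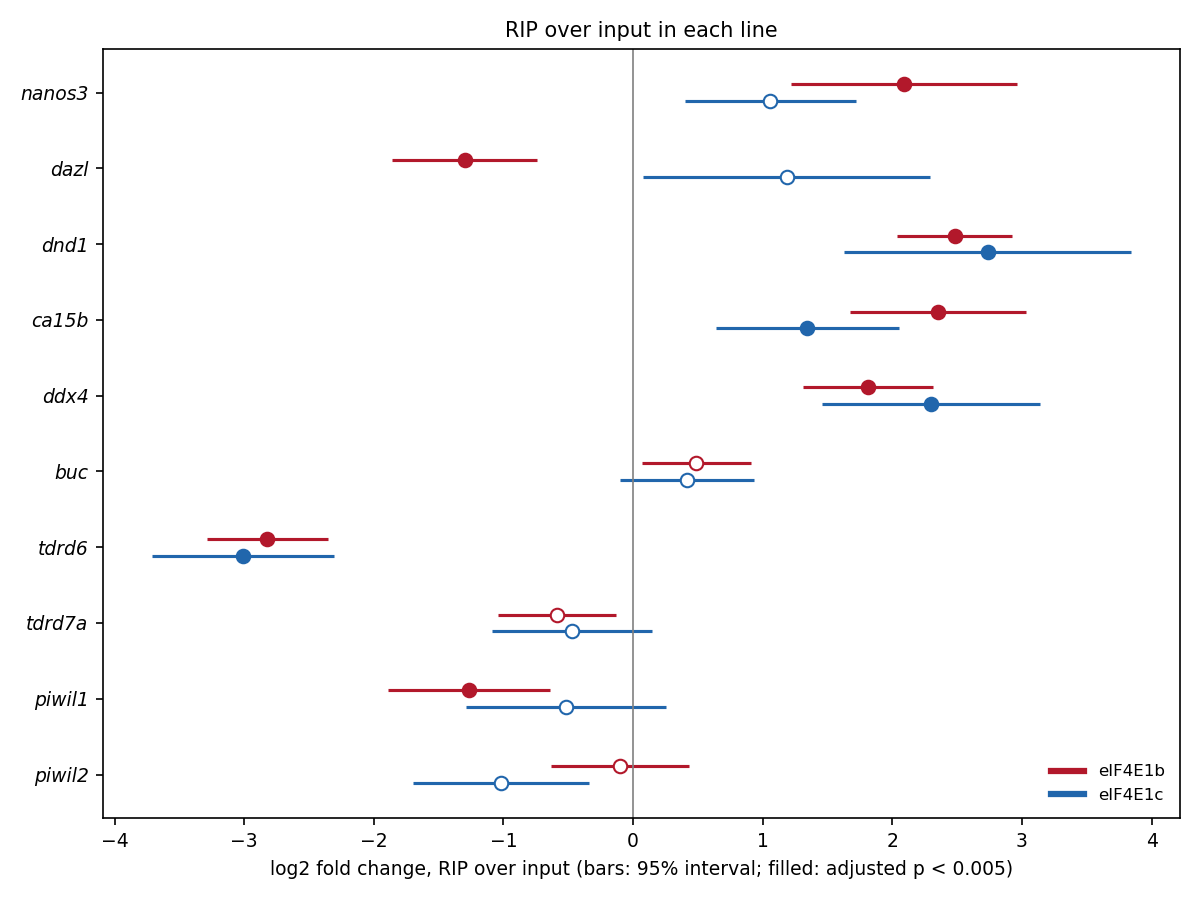
Log2 fold change of RIP over input for each of the 10 transcripts in the eIF4E1b line (red) and the eIF4E1c line (blue), with 95% intervals and filled points where the adjusted p was under 0.005. The values run from -3.01 for tdrd6 to 2.73 for dnd1, both in eIF4E1c, and dazl is the transcript whose values lie on opposite sides of 0, at -1.30 with eIF4E1b and 1.18 with eIF4E1c.

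Among the RNA-binding proteins, nanos3 encodes the zinc-finger translational repressor that germ cells need to survive (ENSDARG00000068255). It had 307, 882 and 1407 normalized counts in eIF4E1b RIP, against 109, 218 and 270.5 in eIF4E1b input. It had 571 and 443 in eIF4E1c RIP, against 275, 218 and 236 in eIF4E1c input. Each RIP group lay above its input, although replicate 1 of eIF4E1b RIP stood far below the other two replicates, as it did among the eIF4E1b inputs. The rise with eIF4E1b was 4.26-fold (log2 2.09 ± 0.45 SE, adjusted p = 9.16e-06, DESeq2). With eIF4E1c the log2 fold change was 1.06 ± 0.34 and the adjusted p was 0.00501, just short of the threshold. The eIF4E1c value passed 0.005 in 4 of 15 alternative fits, among them the one without genes that had no count (0.00495) and the one without eIF4E1c RIP replicate 2 (0.000756). It was 0.156 with the replicate number as a block, 0.0188 with edgeR and 0.0137 to 0.109 without any other single library.

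The RNA-binding protein encoded by dnd1 (ENSDARG00000022813) shields germ cell mRNAs from microRNA-mediated repression. Its transcript had 1062, 1002 and 1023 normalized counts in eIF4E1b RIP, against 204, 158 and 181 in eIF4E1b input. It had 2153 and 630.3 in eIF4E1c RIP, against 284, 186 and 159 in eIF4E1c input. The eIF4E1b RIP libraries were close to each other, those of eIF4E1c lay on either side of them, and all 5 lay above every input. The rise over input was 5.58-fold with eIF4E1b (log2 2.48 ± 0.23, adjusted p = 2.10e-26) and 6.65-fold with eIF4E1c (log2 2.73 ± 0.56, adjusted p = 7.55e-06). With edgeR the eIF4E1c value missed the threshold (adjusted p = 0.0057). It stayed past the threshold without eIF4E1c RIP replicate 1, at a log2 fold change of 1.63.

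The third RNA-binding protein, encoded by dazl (ENSDARG00000036214), promotes translation of germ cell mRNAs. Its transcript had 386, 418 and 320.5 normalized counts in eIF4E1b RIP, against 3406 and 847.6 in eIF4E1c RIP. The inputs had 595, 1064 and 1050.0 in eIF4E1b and 825, 1142 and 843 in eIF4E1c. The eIF4E1b RIP libraries lay below every other library. Replicate 1 of eIF4E1c RIP lay above every other library, and replicate 2 lay within the range of the inputs. With eIF4E1b the transcript fell to 2.46-fold below input (log2 -1.30 ± 0.28, adjusted p = 1.55e-05). In the fit over all 11 libraries the transcript was at -1.27 and that call was lost (adjusted p = 0.00585). With eIF4E1c its log2 fold change over input was 1.18 ± 0.57 (adjusted p = 0.0716). That value was -0.11 without eIF4E1c RIP replicate 1 and 1.88 (adjusted p = 2.29e-11) without replicate 2. A level of dazl above the inputs was therefore seen in replicate 1 of eIF4E1c RIP and not in replicate 2. In a newer assembly (GRCz12tu) dazl overlaps pals2b, and ddx4, dnd1 and piwil2 each overlap an uncharacterized gene. Whether they overlap in the annotation that was counted is not known. If they do, the counts of these 4 transcripts may be affected, which was not tested.

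Between the proteins, dazl was lower in eIF4E1b RIP than in eIF4E1c RIP by a log2 fold change of -2.57 ± 0.56 (adjusted p = 0.000131, DESeq2). It was the single call among the 10 transcripts, 0 higher and 1 lower, beside 3.44% of 14127 genes called higher and 4.51% called lower. edgeR made no call among the 10 and gave dazl an adjusted p of 0.0142, beside 0.0134% of genes called in each direction. At an unadjusted p under 0.05 edgeR had 0 higher and 2 lower, beside 12.7% and 14.4% of genes. Without eIF4E1c RIP replicate 1 the log2 fold change was -1.25 (adjusted p = 0.0373), and without replicate 2 it was -3.25. All 3 eIF4E1b RIP libraries lay below both eIF4E1c RIP libraries. The share of all genes whose RIP groups did not overlap was not counted, here or for piwil1, gtsf1 and celf1 below.

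In the ratio of RIP to input, dazl was again the single call, at -2.45 ± 0.63 for eIF4E1b over eIF4E1c (adjusted p = 0.00156). The 0 higher and 1 lower calls stand beside 3.73% and 5.24% of 14194 genes. edgeR called none of the 10, with an adjusted p of 0.0192 for dazl, beside 0.417% of genes called higher and 1.14% called lower. At an unadjusted p under 0.05 it had 1 higher and 1 lower, beside 14.1% and 12.9% of genes. Without eIF4E1c RIP replicate 1 the value was -1.14 (adjusted p = 0.0469). With each lysate as a replicate block, paired by replicate number and without eIF4E1c input replicate 3, it was -2.04 (adjusted p = 0.0189). With eIF4E1c RIP replicate 2 beside input replicate 3, a pairing chosen after seeing the data, it was -2.26 (adjusted p = 0.00277). The title of that RIP library numbers it 2, whereas the name of its deposited counts carries the number 3. Which eIF4E1c input shares the lysate of RIP replicate 2 is therefore not settled. The call was also lost, at adjusted p-values up to 0.00996, without eIF4E1b RIP replicate 3, eIF4E1b input replicates 2 or 3, or eIF4E1c input replicates 1 or 3. The negative sign held in each of these fits.

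The germ plasm RNA ca15b (ENSDARG00000040510) encodes a carbonic anhydrase. It had 5131, 9792 and 14497 normalized counts in eIF4E1b RIP, against 1299, 1996 and 2365 in eIF4E1b input. It had 4188 and 7496 in eIF4E1c RIP, against 2385, 1969 and 2543 in eIF4E1c input. Every RIP library lay above every input library, and eIF4E1b replicate 1 was the lowest of its group in both RIP and input, as it was for nanos3. The rise over input was 5.10-fold with eIF4E1b (log2 2.35 ± 0.35, adjusted p = 6.87e-11) and 2.54-fold with eIF4E1c (log2 1.35 ± 0.36, adjusted p = 0.000705). The eIF4E1c call was lost with edgeR (adjusted p = 0.0124), with total-count size factors (0.0235), with the replicate number as a block (0.0142) and without any single eIF4E1c input library (0.00965 to 0.0222). The related genes ca15a and ca15c had mean normalized counts of 0 to 0.71 in the 4 groups.

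The ATP-dependent RNA helicase encoded by ddx4 (vasa, ENSDARG00000014373) is a core protein of germ granules. Its transcript had 1648, 2623 and 2854 normalized counts in eIF4E1b RIP, against 643, 711 and 638 in eIF4E1b input. It had 5112 and 2168 in eIF4E1c RIP, against 786, 777 and 663 in eIF4E1c input. The lowest RIP library was above the highest input, and eIF4E1c RIP replicate 1 was again the highest library. The rise was 3.51-fold with eIF4E1b (log2 1.81 ± 0.26, adjusted p = 1.08e-11) and 4.91-fold with eIF4E1c (log2 2.30 ± 0.43, adjusted p = 6.77e-07). Both calls held in each of the 15 alternative fits of their comparison, with log2 fold changes of 1.37 to 2.03 for eIF4E1b and 1.59 to 2.80 for eIF4E1c.

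The organizer of the Balbiani body and the germ plasm, Bucky ball, is encoded by buc (ENSDARG00000096095). Its transcript had 14039, 16937 and 14474 normalized counts in eIF4E1b RIP, against 9156, 10645 and 11955 in eIF4E1b input. It had 15844 and 15792 in eIF4E1c RIP, against 10310, 12938 and 12295 in eIF4E1c input. The RIP libraries lay above the inputs without overlap in both lines, by a small margin. The log2 fold changes over input were 0.49 ± 0.21 with eIF4E1b (adjusted p = 0.0397) and 0.42 ± 0.26 with eIF4E1c (adjusted p = 0.187), neither past the threshold.

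The Tudor proteins bind methylated arginines of Piwi and other germ granule proteins. In zebrafish Tdrd6 binds Bucky ball, and its transcript tdrd6 (ENSDARG00000070052) had 383, 293 and 306 normalized counts in eIF4E1b RIP, against 1944, 2257 and 2613 in eIF4E1b input. It had 233 and 426 in eIF4E1c RIP, against 2882, 2617 and 2505 in eIF4E1c input. The RIP and input groups were far apart, with the highest RIP library well below the lowest input. The transcript fell to 7.07-fold below input with eIF4E1b (log2 -2.82 ± 0.24, adjusted p = 3.79e-31) and to 8.04-fold below it with eIF4E1c (log2 -3.01 ± 0.36, adjusted p = 1.64e-15). Both calls held in each of the 15 alternative fits. In the same newer assembly tdrd6 overlaps its neighbour pla2g7, and whether the counting used strand is not stated. The pla2g7 transcript averaged 103 and 268 normalized counts in the eIF4E1b and eIF4E1c RIP libraries and 177 and 126 in the inputs.

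The second Tudor gene, tdrd7a (ENSDARG00000032808), encodes a protein that shapes germ granules. It had 733, 711 and 804 normalized counts in eIF4E1b RIP, against 892, 1189 and 1232 in eIF4E1b input. It had 1129 and 761 in eIF4E1c RIP, against 1331, 1343 and 1251 in eIF4E1c input. The RIP groups lay below their inputs without overlap, by far less than for tdrd6. The log2 fold changes were -0.59 ± 0.23 (adjusted p = 0.0223) and -0.47 ± 0.32 (adjusted p = 0.217). With total-count size factors, under which the median of all genes in this comparison was -0.38 rather than 0.05, the eIF4E1b value was -1.005 (adjusted p = 3.09e-05).

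The Piwi proteins bind piRNAs, small RNAs that silence transposons in the germ line. The transcript of piwil1 (ziwi, ENSDARG00000041699) had 244, 117 and 184 normalized counts in eIF4E1b RIP, against 344, 434 and 512 in eIF4E1b input. It had 306 and 555 in eIF4E1c RIP, against 516, 703 and 633 in eIF4E1c input. The eIF4E1b RIP libraries lay below all others, and the eIF4E1c RIP libraries overlapped their inputs. With eIF4E1b the transcript fell to 2.41-fold below input (log2 -1.27 ± 0.32, adjusted p = 0.000193), and with eIF4E1c the value was -0.52 ± 0.39 (adjusted p = 0.285). The eIF4E1b call was lost without eIF4E1b input replicate 3 (adjusted p = 0.00726). Between the RIPs, piwil1 was at -1.31 ± 0.52 without overlap of the groups (adjusted p = 0.0597), and its inputs did not overlap either, at -0.52 ± 0.20 (adjusted p = 0.0982). In the ratio of RIP to input it was at -0.73 ± 0.50 (adjusted p = 0.325), short of the threshold.

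The transcript of piwil2 (zili, ENSDARG00000062601) had 987, 526 and 743 normalized counts in eIF4E1b RIP, against 873, 731 and 775 in eIF4E1b input. It had 468 and 641 in eIF4E1c RIP, against 1391, 1050.3 and 932 in eIF4E1c input. The eIF4E1b groups overlapped, while both eIF4E1c RIP libraries lay below their inputs. The log2 fold changes over input were -0.10 ± 0.27 (adjusted p = 0.769) and -1.02 ± 0.35 (adjusted p = 0.00903). The difference of these ratios was 0.94 ± 0.43 (adjusted p = 0.105), so the lines were not shown to differ.

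**Figure D3:**
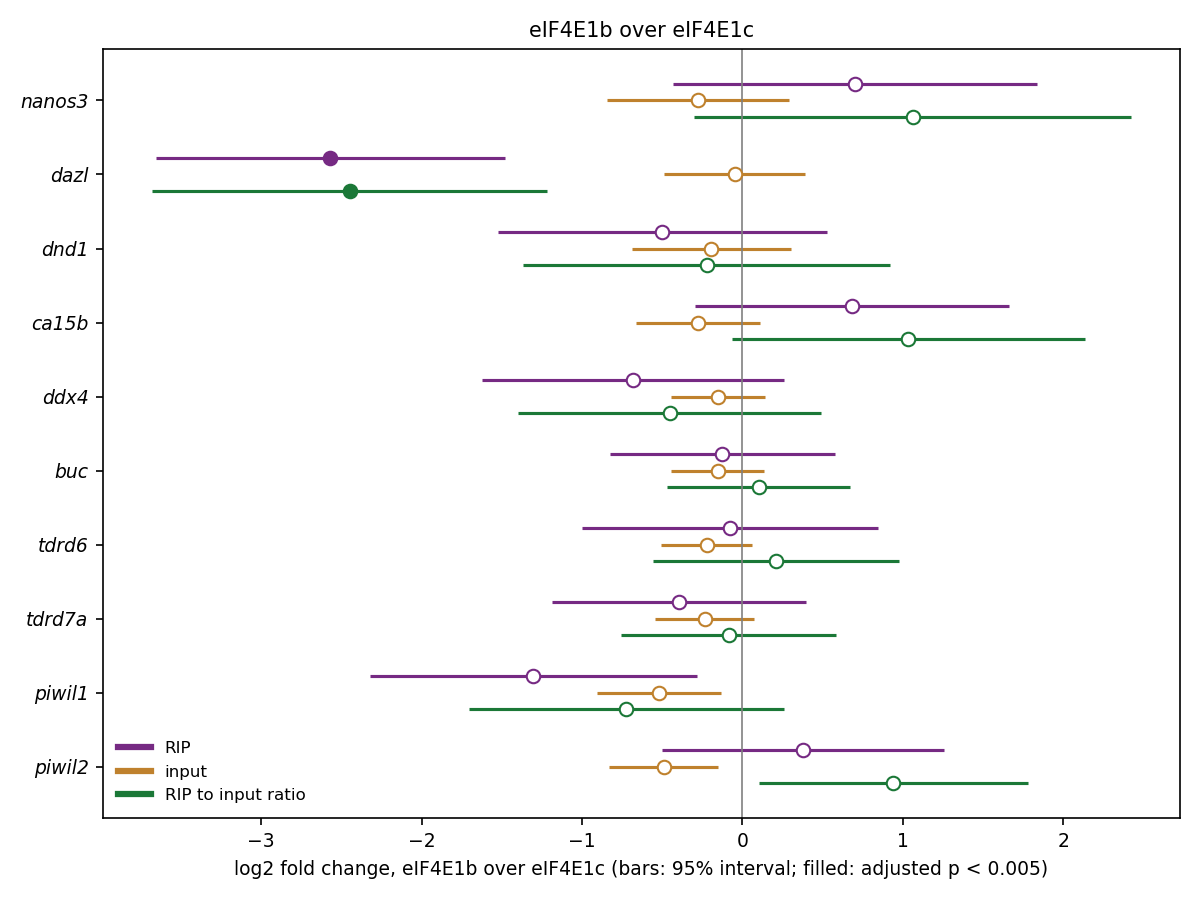
Log2 fold change of eIF4E1b over eIF4E1c for the 10 transcripts in RIP (purple), in input (brown) and in the ratio of RIP to input (green), with 95% intervals and filled points where the adjusted p was under 0.005. The filled points are those of dazl, at -2.57 in RIP and -2.45 in the ratio, while its input value is -0.05.

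For the other 9 transcripts the eIF4E1b and eIF4E1c RIPs were not shown to differ, with log2 fold changes of -1.31 for piwil1 to 0.70 for nanos3. The median over the 10 was -0.26, against -0.01 over all genes tested. The 95% intervals were wide: for nanos3 the interval ran from -0.43 to 1.84, for ca15b from -0.30 to 1.66, for ddx4 from -1.63 to 0.26 and for dnd1 from -1.52 to 0.52. Those intervals took in both signs, whereas that of piwil1, at -1.31 (adjusted p = 0.0597, DESeq2), was negative throughout. Differences of up to the sizes of these intervals remain possible at this replication. The signs of ddx4, dnd1 and tdrd6 turned between fits with and without single RIP libraries. In the ratio of RIP to input the largest positive values were 1.06 ± 0.69 for nanos3 (adjusted p = 0.295) and 1.03 ± 0.56 for ca15b (adjusted p = 0.19).

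In the inputs, none of the 10 transcripts was called in either direction by DESeq2 or edgeR, beside 0.890% of 15281 genes called higher and 1.44% called lower by DESeq2 and 0.0825% and 0.0138% by edgeR. At an unadjusted p under 0.05 both tools gave 0 higher and 2 lower, the Piwi transcripts piwil1 and piwil2 at -0.52 and -0.49, beside 8.70% and 10.3% of genes by DESeq2 and 8.98% and 10.7% by edgeR. All 10 log2 fold changes of eIF4E1b input over eIF4E1c input were negative, from -0.52 to -0.05, with a median of -0.23, against 0.01 over all genes. The signs of nanos3, dazl and dnd1 turned when single input libraries were left out. The eIF4E1b inputs lay below the eIF4E1c inputs without overlap for 3 transcripts, tdrd7a, piwil1 and piwil2, beside 13.3% of genes.

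**Figure D4:**
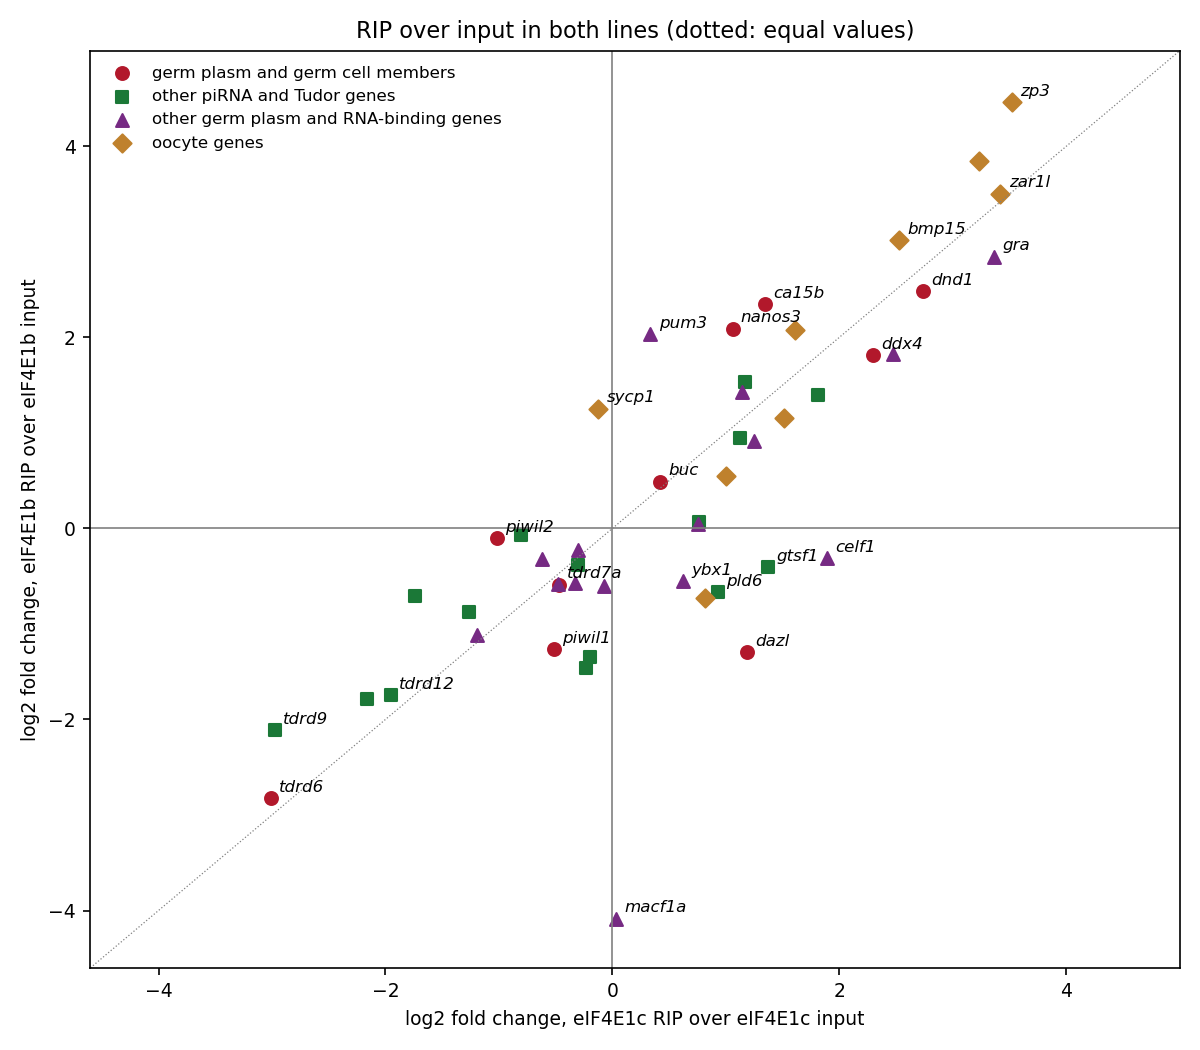
Log2 fold change of RIP over input in the eIF4E1b line (vertical axis) against the eIF4E1c line (horizontal axis) for the 10 transcripts (circles), other piRNA and Tudor genes (squares), other germ plasm and germline RNA-binding genes (triangles) and oocyte genes (diamonds), with a dotted line at equal values. The oocyte gene zp3, at 4.46 and 3.52, is at the upper right and tdrd6 at the lower left, and dazl and celf1 lie below the dotted line. Farthest below that line is macf1a, at -4.08 with eIF4E1b and 0.04 with eIF4E1c, although it was not called between the RIPs or in the ratio. It had 4953 and 231 normalized counts in replicates 1 and 2 of eIF4E1c RIP.

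Other genes of the same pathways were taken from lists written from knowledge of zebrafish germ cells. Of 20 genes of the piRNA pathway and Tudor family, 15 were matched and tested. In eIF4E1b RIP over input 3 rose and 5 fell, beside the 23.0% and 23.2% of all genes, and in eIF4E1c 3 rose and 5 fell, beside 17.2% and 16.8%. The median log2 fold changes were -0.67 and -0.23. Over the alternative fits 2 to 3 rose and 5 to 8 fell with eIF4E1b, and 1 to 4 rose and 3 to 6 fell with eIF4E1c, where 1 rose and 3 fell without input replicate 2. With total-count size factors 2 rose and 8 fell with eIF4E1b, beside 2884 and 5159 of 17123 genes tested. In that fit the median log2 fold change of all genes was -0.38. Shares of all genes are not given for each of these fits. The Tudor genes tdrd5, tdrd9 and tdrd12 fell in both lines, as tdrd6 did, with tdrd9 at -2.12 and -2.98. The piRNA genes asz1 (1.53 and 1.17) and exd1 (1.39 and 1.81) rose in both.

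Of 24 other germ plasm and germline RNA-binding genes, 15 were tested, of which 4 rose and 2 fell in eIF4E1b RIP over input and 3 rose and 1 fell in eIF4E1c, beside the same shares of all genes (23.0% and 23.2%, and 17.2% and 16.8%). With edgeR the counts were 4 and 1 with eIF4E1b, beside 23.0% and 22.6% of genes, and 1 and 0 with eIF4E1c, beside 9.09% and 6.89%. With eIF4E1b 6 fell without RIP replicate 1, and with eIF4E1c 1 rose and 0 fell without input replicate 1 or 3. The shares of all genes in these fits without single libraries are not given here. The germ plasm RNA gra had 464, 985 and 1442 normalized counts in eIF4E1b RIP, against 116, 115 and 163 in its input, and 774 and 1195 in eIF4E1c RIP, against 83.8, 115 and 88.3. It rose in both lines, at log2 fold changes of 2.85 and 3.36, and eIF4E1b RIP replicate 1 was the lowest of its group as for nanos3 and ca15b. Of 12 oocyte genes 9 were tested, of which 6 rose with eIF4E1b and 5 with eIF4E1c, beside 23.0% and 17.2% of all genes, and the others did not pass the test. Their medians were 2.08 and 1.61. With edgeR 5 rose with eIF4E1b and 3 with eIF4E1c, beside 23.0% and 9.09% of genes. Without eIF4E1c input replicate 2, 3 rose with eIF4E1c, and the share of all genes in that fit is not given here. Of 4 genes for somatic guidance of germ cells, 1 (kitlga) was matched. With at most 11 counts in a library it got no adjusted p in any comparison as fitted for the threshold of 0.005 or with edgeR, and it was not called at 0.05 in eIF4E1b RIP over input.

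Between the RIPs, gtsf1, pld6, celf1 and ybx1 were lower with eIF4E1b and pum3 and sycp1 higher. The higher and lower calls were 0 and 2 of 15 piRNA and Tudor genes. They were 1 and 2 of 15 germ plasm and RNA-binding genes and 1 and 0 of 9 oocyte genes, beside 3.44% and 4.51% of 14127 genes. edgeR called none of the 6 named genes between the RIPs, with adjusted p-values of 0.0251 for celf1 to 0.0453 for pld6. In that test 0.0134% of all genes were called in each direction. In mouse, gtsf1 and pld6 act in the piRNA pathway. The gtsf1 transcript had 1305, 1731 and 1118 normalized counts in eIF4E1b RIP, against 3587 and 3615 in eIF4E1c RIP, with no overlap. Its log2 fold change was -1.44 ± 0.39 between the RIPs (adjusted p = 0.00355) and -1.75 ± 0.33 in the ratio of RIP to input (adjusted p = 7.90e-06). The ratio call held with edgeR (adjusted p = 0.00441) and without eIF4E1c RIP replicate 1 (-1.78), whereas the RIP call was lost with edgeR (0.0316) and without any single RIP library (0.00625 to 0.0603).

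The mRNA-binding protein gene celf1 had 801, 805 and 894 normalized counts in eIF4E1b RIP, against 4705 and 1464 in eIF4E1c RIP. As for dazl, the groups did not overlap and replicate 1 of eIF4E1c RIP was the highest. It was at -1.95 ± 0.51 between the RIPs (adjusted p = 0.00206) and -0.89 (adjusted p = 0.126) without that library, and the call was also lost without any single eIF4E1b RIP library (0.0088 to 0.0245). In the ratio it was at -2.17 ± 0.52 (adjusted p = 0.000621) and -1.11 (adjusted p = 0.00304) without eIF4E1c RIP replicate 1. With each lysate as a replicate block, paired by replicate number, the ratio no longer passed (-1.84, adjusted p = 0.00643). With eIF4E1c RIP replicate 2 beside input replicate 3, a pairing chosen after seeing the data, it passed (-2.025, adjusted p = 0.000538). With edgeR the ratio of celf1 did not pass (adjusted p = 0.0115). The cold-shock-domain gene ybx1 was at -1.37 ± 0.39 and -1.15 ± 0.31, and the Pumilio-family gene pum3 at 1.71 ± 0.43 and 1.73 ± 0.41, in the RIP and ratio comparisons. Both were called in each, and edgeR called neither in either (adjusted p = 0.0428 and 0.0307 for ybx1, 0.0411 and 0.0139 for pum3). The ratio call of ybx1 was lost with each lysate as a replicate block (-1.17, adjusted p = 0.0236) and without any single library other than replicate 1 of either RIP (0.00601 to 0.0273), whereas that of pum3 held in these fits. Between the RIPs, ybx1 lost its call without any single library other than eIF4E1c RIP replicate 1 (0.00864 to 0.0729), and pum3 without eIF4E1b RIP replicate 2 or 3 (0.0126 and 0.0356). The call of pld6 between the RIPs (-2.04 ± 0.56, adjusted p = 0.00402) was lost without eIF4E1c RIP replicate 1 (adjusted p = 0.0868), without any single eIF4E1b RIP library (0.0161 to 0.0646) and with edgeR (0.0453).

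The meiotic gene sycp1 was at 3.41 ± 0.75 between the RIPs (adjusted p = 0.000174; 0.0334 with edgeR), with 4199, 1593 and 2799 normalized counts in eIF4E1b RIP, against 481 and 36.2 in eIF4E1c RIP. Without eIF4E1c RIP replicate 1 the value was 6.23, and without replicate 2 it was 2.51. The input value was of the same sign, at 2.07 ± 0.76 (adjusted p = 0.0812), and its ratio value of 1.40 ± 1.37 did not pass the threshold (adjusted p = 0.522).

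Over the 11 libraries, the genes whose log2 normalized counts followed each transcript most closely were named by Pearson's r among 9913 genes with a mean of at least 100 normalized counts. RIP and input libraries differ in kit and immunoprecipitation, so much of an r can be that contrast, and it is a description. For dazl, r was 0.06 with ddx4 and 0.16 with tdrd6, and its highest library was eIF4E1c RIP replicate 1, at 3406 normalized counts. The genes closest to dazl were SORT1 (0.98), sh2d5 (0.97) and STRAP (0.96), and those closest to ddx4 were rps3 (0.99), ENSDARG00000020197 (0.99) and SLC39A9 (0.99). For dnd1 they were SERBP1, PHLDA1 and wbp11 (each 0.99), for nanos3 CC2D1B, RPL13A (each 0.97) and PSME3IP1 (0.96), and for ca15b MGAT2, ACP5 and PITHD1 (each 0.99). The opposite pattern, low in RIP, was followed for tdrd6 by ZC3H7B (1.00), spina and TNIK (each 0.99), and for tdrd7a by VARS1 (0.99), PCCA and uba1 (each 0.98). For piwil1 the closest genes were dnmt3ba (0.97), SNX29 (0.96) and otud1 (0.95), and for piwil2 HSPG2 (0.97), RUNX1T1 and ZNF236 (each 0.93). For buc, which lay above its inputs in both RIPs, they were nudt4a, ENSDARG00000101800 (each 0.95) and ENSDARG00000098174 (0.94). Among the 10 themselves, ddx4 and dnd1 had r = 0.96 and nanos3 and ca15b r = 0.94, whereas dnd1 and tdrd6 had r = -0.96.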

How the data were processed

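RNA from 8-cell embryos of both lines was sequenced from RIP and input libraries on a NovaSeq instrument, RIP with the SMARTer ultra low kit and input with a stranded SMARTer kit after ribosomal RNA removal, and aligned to GRCz11. The values the authors deposited are raw read counts per Ensembl gene, 1 file per library. The submitters' processing notes name Trim Galore 0.5.0, Bowtie2 2.3.4.1, featureCounts, Subread 1.6.2 and DESeq2 1.18.1. Which annotation was used, whether strand was used and how reads with multiple matches were counted are not given in the sources used here, so counts of overlapping genes may be shared.

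Groups came from the sample labels. The counts were tested as deposited with the DESeq2 (1.42.0, R 4.3.3) Wald test, two-sided, with size factors by median of ratios, unshrunken fold changes, independent filtering and Benjamini-Hochberg adjustment over all genes tested, at 0.005. Each pair of groups was fitted on its own libraries, and the ratio was the interaction of line and kind of library over all 11. edgeR (4.0.16) with its quasi-likelihood test, TMM scaling and filterByExpr was the main alternative. The others were TMM and total-count scaling, other filters, a threshold of 0.05, 1 fit over all 11 libraries, a replicate block and leaving out each library. The code was tested on simulated data.

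A count of 0 allows up to 3 counts, which is 0.214 to 0.432 CPM over the libraries, for counting error only. Replicate pairs differed by far more than sampling noise (chi-square per degree of freedom of 12.1 to 139). Replicate numbers paired eIF4E1b RIP with input: deviations from the group means correlated at r = 0.45, 0.29 and 0.46 over 9913 genes, as the input was an aliquot of each lysate. In eIF4E1c the same-number values were 0.22 and 0.08, and RIP replicate 2 correlated best with input replicate 3 (0.24). With 2 libraries in that RIP group, the deviations of replicate 2 are those of replicate 1 with the sign turned. Their correlations are therefore not separate evidence, and they cannot settle which input belongs to RIP replicate 2.

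Symbols came from a table covering 29201 of the 32520 identifiers. Named were the 10 genes, genes of the lists past the threshold in the RIP or ratio comparison, the 3 genes most like each of the 10, using log2 of the count plus a pseudocount of 1, and the genes of the tagged proteins. Other list genes (zp3, gra, macf1a, tdrd5, tdrd9, tdrd12, asz1, exd1), neighbours and markers were named after their values were seen. The 10 genes and the lists were chosen with earlier results of these data known. Sequences and lengths were not used here, and positions were used only to find neighbouring and overlapping genes in GRCz12tu.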

Additional observations from a re-analysis of the deposited data

Results flagged for a closer look

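The RIP to input ratio of dazl differed between the lines by the interaction test, at -2.45 for eIF4E1b over eIF4E1c on the log2 scale. Of the 10 transcripts it was the single one to do so, beside 3.73% of 14194 genes called higher and 5.24% called lower. The dazl ratio passed in 12 of 20 alternative fits. It fell short under edgeR (adjusted p = 0.0192) and with lysates blocked by replicate number (adjusted p = 0.0189, DESeq2). With eIF4E1c RIP replicate 2 beside input replicate 3, a pairing chosen after seeing the data, the dazl ratio passed (adjusted p = 0.00277, DESeq2). Its value without eIF4E1c RIP replicate 1, the library with the fewest counts, was -1.14 (adjusted p = 0.0469, DESeq2).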

How the results depend on the processing

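Among the 10 transcripts the counts of calls in eIF4E1b RIP over input and in the inputs stayed within 1.5 times of those reported in every fit. For eIF4E1b RIP over eIF4E1c RIP, the 1 lower call became 0 with edgeR, 0 with the replicate block and 2 in the fit over all 11 libraries (piwil1 added), and was 0 to 1 when single libraries were left out. That block matched replicate numbers between lines that share no lysate. It also left out eIF4E1b RIP replicate 3, so the lost call cannot be laid to a pairing. For eIF4E1c RIP over input, the higher calls were 1 with edgeR and 2 to 5 without single libraries, and the lower calls were 2 at a threshold of 0.05, 2 in the fit over all 11 libraries and 1 to 3 without single libraries. For the ratio, the 1 lower call was 0 with edgeR, 0 with the replicate block and 0 to 1 without single libraries. Not every fit has a share of all genes here, so a move of these counts may be a move over all genes. The causes were not tested.

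The replicate block changed no call in eIF4E1b RIP over input. With eIF4E1c RIP replicate 2 beside input replicate 3, a pairing chosen after seeing the data, dazl had a ratio of -2.26 (adjusted p = 0.00277) and ca15b lost its eIF4E1c call (adjusted p = 0.0218), and dnd1 had a ratio of 0.051, against 0.17 with the numbers of the labels and -0.22 without a block. Leaving out genes with no count was also chosen after seeing the data.

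No called value changed sign. Among values that were not called, signs turned with the replicate block for tdrd6 between the RIPs (0.039) and, with either pairing, for the ratio of dnd1, and with total-count size factors for the ratios of buc (-0.12) and tdrd6 (-0.075). Without single libraries, values between the RIPs ran from -1.18 to 0.051 for ddx4, -1.13 to 0.63 for dnd1 and -0.46 to 0.42 for tdrd6. Between the inputs they ran from -0.56 to 0.019 for nanos3, -0.18 to 0.18 for dazl and -0.36 to 0.062 for dnd1. Over input they ran from -0.34 to 0.13 for piwil2 in eIF4E1b and from -0.11 to 1.88 for dazl in eIF4E1c. In the ratio they ran from -0.95 to 0.28 for ddx4, -0.87 to 0.90 for dnd1, -0.16 to 0.71 for tdrd6 and -0.35 to 0.20 for tdrd7a.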
